A study of Homo sapiens with 16 samples.

Results

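SPI1, IRF8, KLF4, EGR1, EGR2 and ZEB2 are 6 transcription factors known for their roles in the monocyte lineage, and they were followed here across 2 human acute myeloid leukaemia lines. The members were chosen by name, and each name matched 1 of the 60603 genes in the deposited count table. SKNO-1 cells are myeloblasts that carry the RUNX1-RUNX1T1 fusion gene. U-937 cells are further along the monocytic path. Each line was kept for 24 h in 1 of 4 ways: with DMSO as the solvent control, with 0.1 µM ATRA (retinoic acid in its all-trans form), with 0.1 µM Corin, or with both agents at that dose. ATRA activates the retinoic acid receptors. Corin inhibits the CoREST corepressor complex through its demethylase LSD1 and its histone deacetylases HDAC1 and HDAC2. Each of the 8 groups held 2 libraries of total RNA, and the SKNO-1 medium in all 4 SKNO-1 groups also held GM-CSF at 10 ng/mL. The labels do not say whether the libraries of a group came from separate cultures, so p-values measure only the spread between these libraries, which may be technical.

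PU.1, the protein of SPI1, is an ETS factor that opens myeloid enhancers, and it acts on many of them as a partner of IRF8. IRF8 directs progenitors towards monocytes and dendritic cells and away from granulocytes. KLF4 is needed for the inflammatory type of monocyte, EGR1 and EGR2 are zinc finger factors that are both early growth response genes and macrophage differentiation factors, and ZEB2 is a repressor that keeps myeloid fate and represses other lineages.

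EGR1 and EGR2 are induced within minutes by growth factor signals, in part through serum response factor, which binds a sequence called the CArG box. The promoter table from RefSeq (GRCh38.p14) held windows of 5 of the 6 genes. The CArG box was found in the EGR1 window and in 1 of the 3 EGR2 windows, on a search of both strands, and in 1.29% of all 35116 promoter windows of the same length. The stretch from 160 to 11 bases before each start is shown because the results below turn on these genes. Capitals mark the CArG boxes, of which EGR1 has 2, beginning 105 and 83 bases before its start, and EGR2 has 1, beginning 71 bases before its start. The EGR1 stretch is chr5:138465319-138465468 on the plus strand, just upstream of the gene. The EGR2 stretch is chr10:62816377-62816526 on the minus strand, which lies upstream of the shorter EGR2 transcripts and in an intron of the longer ones.
EGR1: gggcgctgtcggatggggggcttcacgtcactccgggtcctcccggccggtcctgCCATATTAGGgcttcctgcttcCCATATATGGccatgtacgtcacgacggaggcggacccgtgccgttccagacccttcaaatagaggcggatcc
EGR2: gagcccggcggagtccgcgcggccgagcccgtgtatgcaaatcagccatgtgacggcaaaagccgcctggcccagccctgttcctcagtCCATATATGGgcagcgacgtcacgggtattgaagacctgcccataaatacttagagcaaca

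In the same windows, the PU box GAGGAA was found 54 bases before the KLF4 start and 80 bases before the start of the EGR2 window shown, and in 27.9% of all windows. The interferon-stimulated element was found 85 bases before the ZEB2 start and in 3.57% of all windows. The direct repeat bound by retinoic acid receptors had no match in these windows. Its single unit AGGTCA was found in the 2 overlapping IRF8 windows, in no window of the other 4 genes, and in 13.8% of all windows. A match of letters describes the window and shows no binding.

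The estimated counts of a library summed to between 32773327 and 37817309 for SKNO-1 and between 28414461 and 37563217 for U-937. The 2 SKNO-1 DMSO libraries stood apart from each other: their log2 difference had an SD of 0.362 across 9115 expressed genes, against 0.110 to 0.211 in the other 7 groups. That difference rose with the GC content of the gene (Pearson r = 0.793 across genes, which are not independent replicates). SPI1, whose longest transcript has 65.2% GC, and ZEB2, with 39.1%, are the highest and the lowest of the members in GC, so the SKNO-1 comparisons against DMSO are given below also without each DMSO library. A group left with 1 library is assumed to vary like the other groups. With the DMSO pair broken the spread came from the other 3 SKNO-1 groups, and the genes called with ATRA went from 1181 to 5335 or 4522, so these values show how far a change depends on the DMSO library and their p-values support no call. The 6 monocyte markers fixed for this work (CD14, FCGR1A, CSF1R, ITGAM, CD68, LYZ) summed to 261 to 3450 CPM (counts scaled to the size of each library) in U-937 and to 84.4 to 621 CPM in SKNO-1. CD14, the defining monocyte marker among them, had group means of at most 0.824 CPM in SKNO-1 and 0.213 CPM in U-937. T cell markers summed to at most 3.10 CPM in any library, erythroid markers to at most 0.0655, epithelial markers to at most 0.221 and B cell markers to at most 13.4, with CD3E and CD3G at 0 in SKNO-1 and MS4A1 at 0 in both lines. In these bulk libraries, fewer cells of a type and less RNA per cell cannot be told apart.

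ZEB2 was the most abundant of the 6 factors in every group and EGR2 was at or next to the lowest, whereas IRF8 was high in U-937 and had 1 count in all of SKNO-1. On the length-scaled TPM of the authors, SKNO-1 with DMSO had 95.8 ± 38.1 of ZEB2 and U-937 with DMSO 159 ± 0.983 (mean ± SD, n = 2). In SKNO-1 with DMSO, SPI1 followed at 13.1 ± 1.98 TPM, EGR1 at 4.54 ± 2.36, KLF4 at 0.345 ± 0.177 and EGR2 at 0.115 ± 0.00707, and IRF8 was at 0. In U-937 with DMSO, IRF8 came second at 69.9 ± 1.90 TPM, then SPI1 at 11.4 ± 2.33, KLF4 at 1.08 ± 0.0566, EGR1 at 0.820 ± 0.0424 and EGR2 at 0.235 ± 0.106. Within each line this order was the same in all 4 groups, with 1 exception: EGR2 passed EGR1 in U-937 with ATRA (0.185 against 0.115 TPM) and with both agents (0.495 against 0.320 TPM). The ranks were identical on the FPKM of the authors. Within a library TPM and FPKM differ by a common factor, so this adds no support to the order. The order says nothing of changes between groups, on which the scales differ: ZEB2 in U-937 had 159 ± 0.983 TPM with DMSO and 119 ± 6.01 TPM with both agents, 167 ± 6.98 and 160 ± 4.14 FPKM, and 543 ± 4.61 and 607 ± 14.8 CPM.

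**Figure D1:**
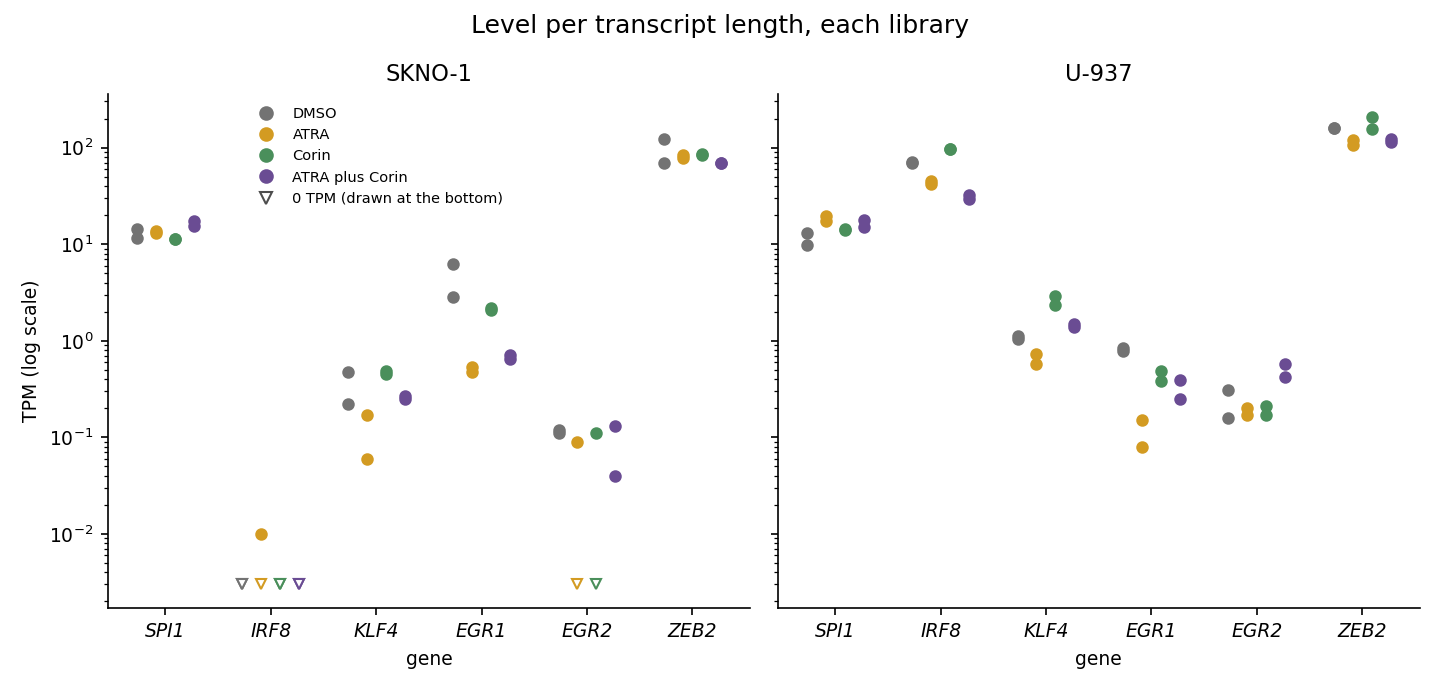
Length-scaled level (TPM, log axis) of each factor in each library, by treatment, in SKNO-1 (left) and U-937 (right). Each point is 1 library and triangles mark libraries at 0 TPM. ZEB2 is highest in all groups, and IRF8 is second in U-937 and at or near 0 in SKNO-1.

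Differences between treatments were tested on counts with edgeR's quasi-likelihood test, fitted to all genes of a line, with Benjamini-Hochberg adjustment over all genes tested; a gene is called at an adjusted p under 0.05. The 3 comparisons with DMSO share the same 2 control libraries in each line. In U-937, ATRA changed 3 of the 6 factors (SPI1 higher, IRF8 and EGR1 lower), where 41.8% of all 17717 genes were called. Corin changed 2 in U-937 (IRF8 and KLF4, both higher), where 12.9% of genes were called and 8.55% were called higher. Both agents together changed 5 in U-937 (SPI1, KLF4 and EGR2 higher, IRF8 and EGR1 lower), against 65.3% of genes.

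SKNO-1 gave fewer calls among the members, of which fewer could be tested. Over all genes, Corin gave a larger share of calls in SKNO-1 than the 12.9% in U-937. Of its 17479 tested genes, 6.76% were called with ATRA, 37.9% with Corin and 46.7% with both agents, and in each of these comparisons 1 member was called of the 4 that could be tested, which was EGR1, each time lower. The shares of genes called lower were 3.79%, 17.3% and 22%. IRF8 and EGR2 had too few counts in SKNO-1 to enter the fit. With 4 to 6 members these counts describe the members and set them apart from other genes in none of the comparisons.

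**Figure D2:**
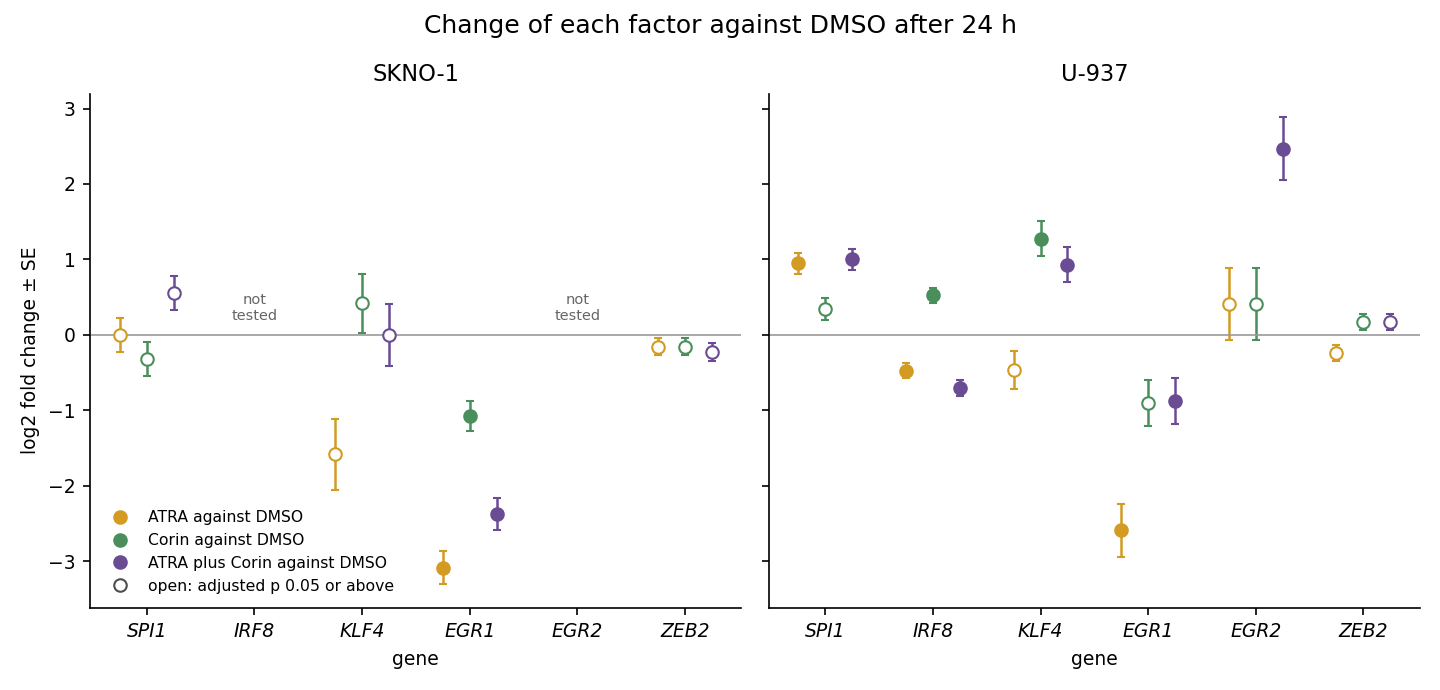
Log2 fold change against DMSO (± SE) of each factor with ATRA, Corin and both agents in SKNO-1 (left) and U-937 (right). Filled points have an adjusted p under 0.05. EGR1 lies below 0 in all 6 comparisons, and IRF8 in U-937 lies above 0 with Corin and below 0 with ATRA and with both.

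SPI1 (ENSG00000066336.11, chromosome 11, 47354860 to 47378547, minus strand, GENCODE 44 on GRCh38) about doubled with ATRA in U-937. Its levels there were 15.5 and 11.3 CPM in the DMSO libraries, 23.1 and 28.9 CPM with ATRA, 18 and 16 CPM with Corin, and 27.4 and 26.1 CPM with both agents. Both ATRA libraries and both libraries of the combination were above all DMSO and Corin libraries. The log2 fold change was 0.95 with ATRA (SE 0.143, edgeR adjusted p = 1.66e-05) and 1.00 with both agents (SE 0.143, adjusted p = 3.27e-06). With Corin it was 0.35 (SE 0.145, adjusted p = 0.130), which did not pass the test. Adding Corin to ATRA gave 0.05 (SE 0.138, adjusted p = 0.790), whereas adding ATRA to Corin gave 0.65 (SE 0.140, adjusted p = 0.000421). Over 11 alternatives the Corin change ran from 0.136 to 0.59, the upper end being its value without U-937 DMSO replicate 1.

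In SKNO-1, SPI1 was at 26.1 and 15.0 CPM in DMSO, 18.8 and 21.2 CPM with ATRA, 16.2 and 16.6 CPM with Corin, and 28.6 and 29.8 CPM with both agents. The 2 libraries of the combination were above the other 6, and the DMSO pair spanned the ATRA and Corin libraries. No change against DMSO was called: the log2 fold change was -0.01 with ATRA (adjusted p = 0.996), -0.32 with Corin (adjusted p = 0.307) and 0.55 with both (SE 0.227, adjusted p = 0.0806). These values turned on the DMSO library kept. Without SKNO-1 DMSO replicate 1, ATRA gave 0.43, Corin 0.13 and both agents 1.01. Without DMSO replicate 2, ATRA gave -0.41, Corin -0.70 and both agents 0.18. Against Corin, the combination gave 0.88 (SE 0.230, adjusted p = 0.0506). The DMSO libraries do not enter this fold change but do enter its spread, which the 4 groups share. The comparison passed in 6 of 11 alternatives, among them only the libraries compared (0.88, adjusted p = 6.6e-10). With the GC trend removed it was 0.28 (adjusted p = 0.0228). Against ATRA the combination gave 0.56 (SE 0.227, adjusted p = 0.0798). That passed under DESeq2 (0.56, adjusted p = 0.0366) and with only the libraries compared (0.56, adjusted p = 7.1e-06). It fell to 0.15 with the GC trend removed (adjusted p = 0.106).

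IRF8 (ENSG00000140968.11, chromosome 16, 85899116 to 85922606, plus strand) was a U-937 gene in these data. It had 1 count over all 8 SKNO-1 libraries, in an ATRA library, so none of its treatment responses could be tested in that line. U-937 with DMSO held 6656 counts, at least 2400-fold more than SKNO-1 with DMSO, against a floor of 3 counts over the SKNO-1 group, or 0.0436 CPM.

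The 2 agents moved IRF8 in opposite directions in U-937. It was at 107 and 102 CPM in DMSO, 74.3 and 76.0 CPM with ATRA, 160 and 139 CPM with Corin, and 59.7 and 67.9 CPM with both agents. The libraries of the 4 groups did not overlap, and the order was Corin, DMSO, ATRA, both agents. The log2 fold change was -0.48 with ATRA (SE 0.101, edgeR adjusted p = 0.000467), 0.52 with Corin (SE 0.0999, adjusted p = 0.000735) and -0.71 with both (SE 0.101, adjusted p = 1.67e-06). Adding ATRA to Corin lowered IRF8 by a log2 fold change of -1.23 (SE 0.102, adjusted p = 2.60e-10), the smallest adjusted p of any member in a treatment comparison. Adding Corin to ATRA gave -0.23 (SE 0.101, adjusted p = 0.0688), which passed in 5 of 11 alternatives, among them without the second library of the combination (-0.32, adjusted p = 0.0331).

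KLF4 (ENSG00000136826.15, chromosome 9, 107484852 to 107490482, minus strand) was low in both lines and rose with Corin in U-937. Its levels in U-937 were 1.99 and 2.16 CPM in DMSO, 1.28 and 1.73 CPM with ATRA, 4.85 and 5.18 CPM with Corin, and 3.69 and 4.19 CPM with both agents. All 4 libraries that received Corin were above the 4 that did not. The log2 fold change was 1.27 with Corin (SE 0.231, edgeR adjusted p = 0.000396), 0.93 with both agents (SE 0.234, adjusted p = 0.00130) and -0.47 with ATRA (SE 0.250, adjusted p = 0.138). Adding Corin to ATRA raised KLF4 by 1.40 (SE 0.239, adjusted p = 3.33e-05), and adding ATRA to Corin gave -0.34 (SE 0.219, adjusted p = 0.181).

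In SKNO-1, KLF4 was at 0.660 and 0.958 CPM in DMSO, 0.123 and 0.388 CPM with ATRA, 1.11 and 1.05 CPM with Corin, and 0.885 and 0.673 CPM with both agents, which is 18 to 71 counts over the 2 libraries of a group. The ATRA libraries were the lowest and the Corin libraries the highest. No change against DMSO was called, with -1.58 for ATRA (SE 0.473, adjusted p = 0.104), 0.42 for Corin (adjusted p = 0.440) and -0.01 for both (adjusted p = 0.993). The ATRA value was -1.06 and -2.69 without ATRA replicates 1 and 2, and -1.85 and -1.35 without DMSO replicates 1 and 2. Both agents against ATRA, a comparison in which 44.8% of genes were called (23.0% higher) and 2 members were higher, gave 1.58 (SE 0.478, adjusted p = 0.0275). That call was lost without ATRA replicate 1 (1.04, adjusted p = 0.111) and without the first (1.36, adjusted p = 0.134) or the second library of the combination (1.76, adjusted p = 0.0603), and without ATRA replicate 2 it stood at 2.67 (adjusted p = 0.0128).

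EGR1 (ENSG00000120738.8, chromosome 5, 138465479 to 138469303, plus strand), whose CArG boxes are shown above, fell with ATRA in both lines. In SKNO-1 it was at 12.8 and 19.9 CPM in DMSO, 1.69 and 2.02 CPM with ATRA, 7.49 and 7.88 CPM with Corin, and 3.03 and 3.0 CPM with both agents. No libraries of different groups overlapped. The log2 fold change was -3.09 with ATRA (SE 0.222, edgeR adjusted p = 0.000138), an 8.51-fold lower level. It was -1.08 with Corin (SE 0.196, adjusted p = 0.00379) and -2.38 with both agents (SE 0.212, adjusted p = 9.05e-05). All 11 alternatives of each of these 3 comparisons kept the call, with values from -3.40 to -2.80 for ATRA.

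The combination thus left more EGR1 in SKNO-1 than ATRA alone, by 0.71 (SE 0.234, adjusted p = 0.0397), and less than Corin alone, by -1.30 (SE 0.213, adjusted p = 0.00883). The difference from ATRA lost the call in 7 of 11 alternatives, including each of the 4 that leave out a library: 0.62 without ATRA replicate 1, 0.88 without ATRA replicate 2, and 0.69 and 0.71 when the first or second library of the combination was dropped (adjusted p from 0.0786 to 0.174). The difference from Corin, where 10.4% of genes were called (5.6% lower) and 1 member, kept the call in 7 of 11 alternatives. It lost the call without any 1 of its 4 libraries. It was -1.34 or -1.27 when Corin replicate 1 or 2 was dropped. When the first or second library of the combination was dropped it was -1.31 or -1.29. Over all 11 alternatives it ran from -1.47 to -1.27.

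U-937 had less EGR1 throughout. It was at 2.57 and 2.33 CPM in DMSO, 0.506 and 0.293 CPM with ATRA, 1.23 and 1.38 CPM with Corin, and 1.53 and 1.09 CPM with both agents. The ATRA libraries were the lowest, the DMSO libraries the highest, and Corin and the combination overlapped between them. The log2 fold change with ATRA was -2.59 (SE 0.35, adjusted p = 1.92e-06), and it kept its call in all 11 alternatives. With Corin it was -0.90 (SE 0.304, adjusted p = 0.0514), which passed with the GC trend removed (-0.96, adjusted p = 0.0379). With both agents it was -0.89 (SE 0.305, adjusted p = 0.0140), and this call was lost with DESeq2 (-0.90, adjusted p = 0.0610), without DMSO replicate 1 (-0.82, adjusted p = 0.0736) and without the second library of the combination (-0.68, adjusted p = 0.115). The authors' deposited table for this comparison gives a log2 fold change of -0.92 with an adjusted p of 0.0868. Adding Corin to ATRA, where 47.4% of genes were called (22.5% higher) and 4 members were higher, raised EGR1 by 1.71 (SE 0.365, adjusted p = 0.000407).

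EGR2 (ENSG00000122877.16, chromosome 10, 62811996 to 62819167, minus strand) was called higher than DMSO only with the combination in U-937, among the 3 treatments tested there. Its levels in U-937 were 0.242 and 0.458 CPM in DMSO, 0.346 and 0.586 CPM with ATRA, 0.538 and 0.377 CPM with Corin, and 2.10 and 1.75 CPM with both agents. Libraries of the first 3 groups overlapped, and both libraries of the combination stood above them. Summed over a group, EGR2 had 22 counts for DMSO, 33 for each single agent and 127 for the combination. The log2 fold change was 2.47 with both agents (SE 0.421, edgeR adjusted p = 1.69e-05), a 5.53-fold higher level, and 0.41 with ATRA (SE 0.478, adjusted p = 0.520) and with Corin (SE 0.478, adjusted p = 0.643). The combination also differed from ATRA alone (2.06, SE 0.397, adjusted p = 0.000138) and from Corin alone (2.06, SE 0.398, adjusted p = 9.33e-05). The comparison with Corin alone called 3 members and 60.5% of genes. In SKNO-1 EGR2 had 9 counts over the DMSO libraries, 5 with ATRA, 2 with Corin and 7 with both, too few to enter the fit of that line.

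ZEB2 (ENSG00000169554.21, chromosome 2, 144364364 to 144521057, minus strand) had no called change against DMSO in either line. In U-937 it was at 547 and 540 CPM in DMSO, 468 and 452 CPM with ATRA, 577 and 640 CPM with Corin, and 597 and 618 CPM with both agents. The ATRA libraries were the lowest, and the Corin and combination libraries lay above DMSO. In U-937 the log2 fold change was -0.24 with ATRA (SE 0.105, edgeR adjusted p = 0.0674), 0.17 with Corin (SE 0.105, adjusted p = 0.341) and 0.17 with both (SE 0.105, adjusted p = 0.165). The ATRA value passed in DESeq2 (-0.27, adjusted p = 0.00888), and the authors' deposited table gives -0.25 with an adjusted p of 0.00156. The value with both agents passed with the GC trend removed (0.24, edgeR adjusted p = 0.022). Adding Corin to ATRA raised ZEB2 by 0.41 (SE 0.105, adjusted p = 0.00233), a 1.33-fold difference, and without ATRA replicate 2 that was 0.39 with an adjusted p of 0.0541.

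ZEB2 in SKNO-1 was at 337 and 459 CPM in DMSO, 357 and 336 CPM with ATRA, 354 and 357 CPM with Corin, and 338 and 316 CPM with both agents. DMSO replicate 2 was the highest of the 8, and the groups otherwise lay close together. The log2 fold changes against DMSO were -0.16 with ATRA (adjusted p = 0.571), -0.16 with Corin (adjusted p = 0.320) and -0.23 with both agents (adjusted p = 0.144). Without DMSO replicate 1 they were -0.39, -0.37 and -0.43, and without DMSO replicate 2, ATRA gave 0.02 and Corin 0.04. With the GC trend removed and all libraries kept, Corin gave -0.185 and passed (edgeR adjusted p = 0.0159).

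**Figure D3:**
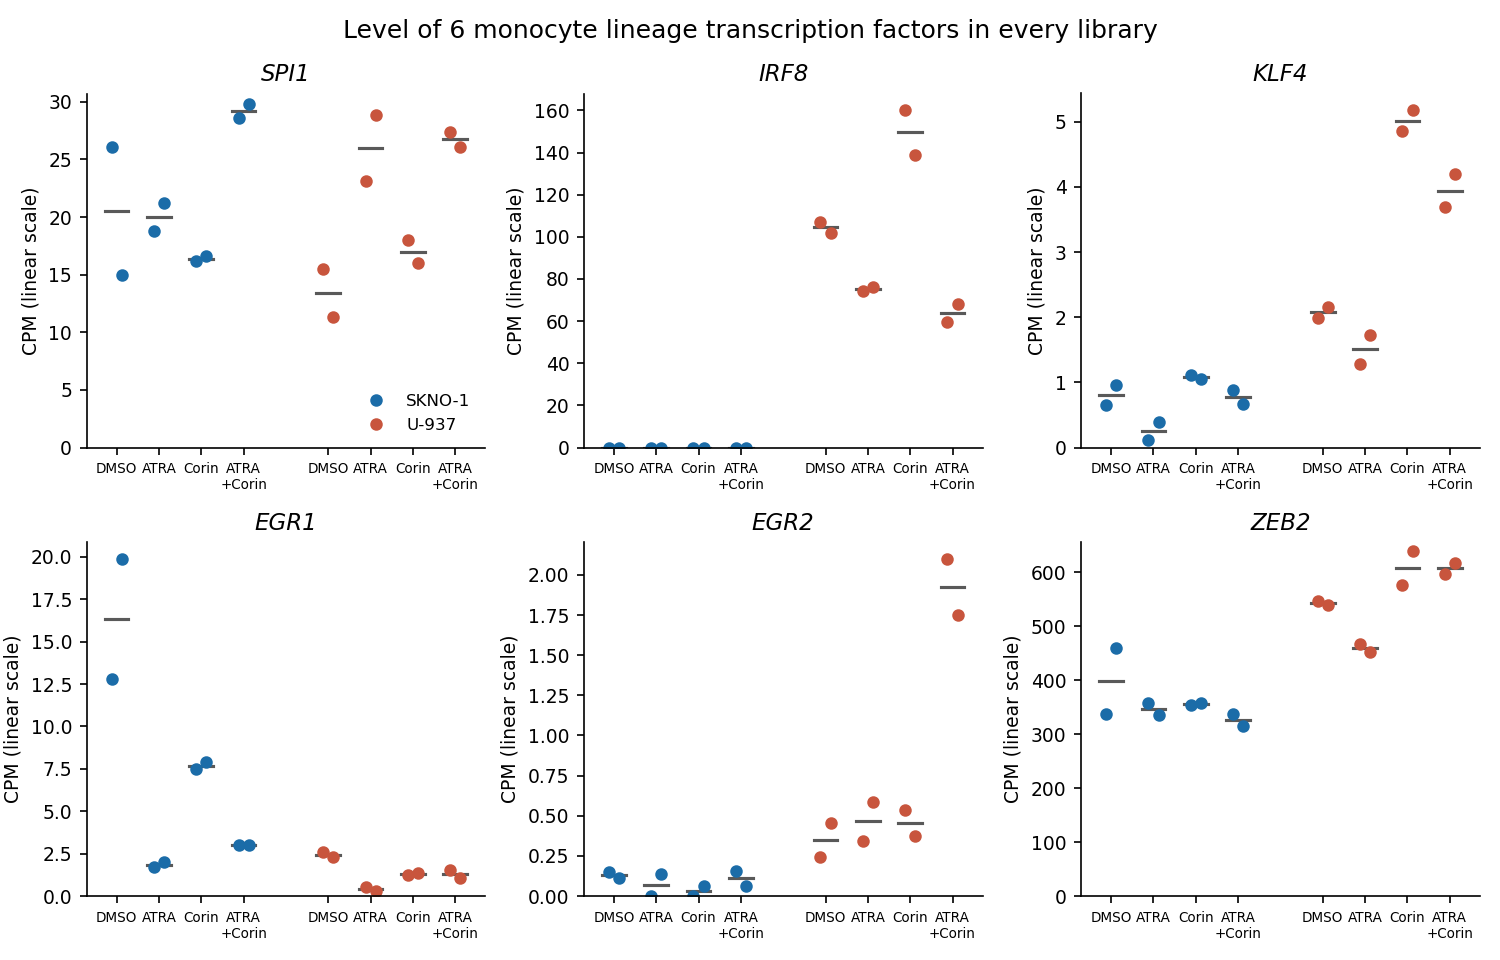
CPM of each factor in every library (points, linear axes from 0), with the mean of each group as a line, by treatment in SKNO-1 (blue) and U-937 (red). EGR2 in U-937 with both agents (2.10 and 1.75 CPM) stands above the other EGR2 libraries, and the 2 SKNO-1 DMSO libraries are far apart for SPI1, EGR1 and ZEB2.

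Additivity was tested by setting the log2 change with both agents against the ATRA change plus the Corin change. In U-937, 2 of the 6 members departed from that sum, where 23.4% of genes did. IRF8 was lower than the sum by a log2 value of -0.75 (SE 0.142, edgeR adjusted p = 0.000330): Corin raised it alone, and the combination brought it below ATRA alone in both libraries. EGR1 was higher than the sum by 2.61 (SE 0.475, adjusted p = 0.000196): it was lowest with ATRA alone, and the combination differed from Corin by 0.02 (SE 0.317, adjusted p = 0.965). EGR2 was higher by 1.65 (SE 0.628, adjusted p = 0.0602), and it ran from 1.12 (adjusted p = 0.356, without DMSO replicate 2) to 2.07 (adjusted p = 0.0409, without ATRA replicate 2) with 1 library left out. It also passed without DMSO replicate 1 (2.04, adjusted p = 0.0371). SPI1, KLF4 and ZEB2 gave -0.30, 0.13 and 0.24, which did not pass.

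In SKNO-1 no member departed from additivity at the adjusted threshold of edgeR, where 0.463% of genes did (0.0384% to 30.9% over the alternatives), and 2 of the 4 tested had an unadjusted p under 0.05. EGR1 was higher than the sum by 1.79 (SE 0.305, adjusted p = 0.0610), and DESeq2 called it (1.79, adjusted p = 0.000432) as the only member. It also passed in edgeR with no low-count filter (1.82, adjusted p = 1.56e-08) and with the replicate block and the GC trend removed (1.65, adjusted p = 0.0239). In 9 of 14 alternatives EGR1 stayed uncalled. For EGR1, dropping the first DMSO library gave 2.10 and dropping the second gave 1.51. SPI1 was higher by 0.88 (adjusted p = 0.306), by 0.46 and 1.29 without DMSO replicates 1 and 2, and by 0.27 with the GC trend removed (adjusted p = 0.228).

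**Figure D4:**
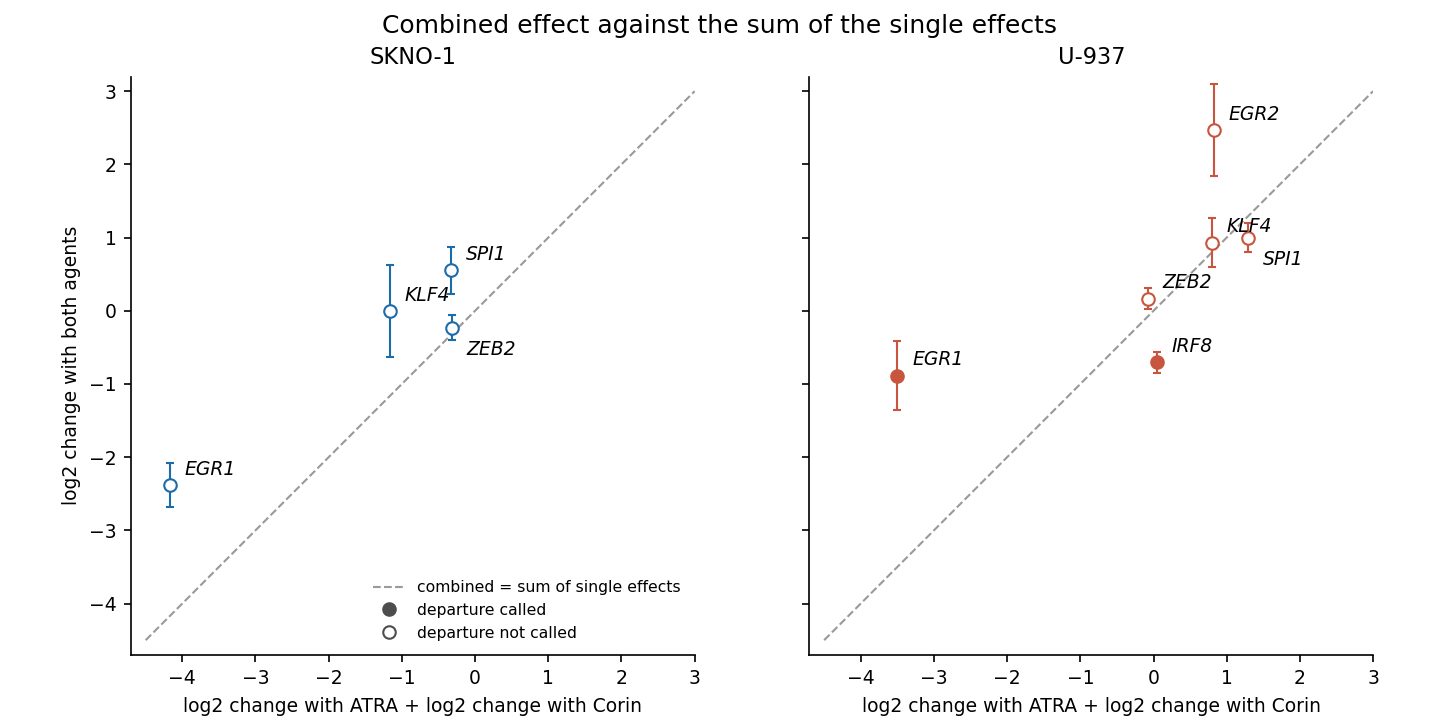
Log2 change with both agents (vertical) against the sum of the log2 changes with ATRA and with Corin (horizontal), for each tested factor in SKNO-1 (left) and U-937 (right). Bars are the SE of the departure from the dashed line of equality, and filled points have a departure with an adjusted p under 0.05, which in U-937 are EGR1 above the line (2.61) and IRF8 below it (-0.75).

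The lines differed before treatment. In DMSO, 5 of the 6 members and 64.8% of 19872 genes were called between U-937 and SKNO-1 in a fit of all 16 libraries. Besides IRF8, KLF4 was higher in U-937 by a log2 fold change of 1.35 (SE 0.305, edgeR adjusted p = 0.000712) and ZEB2 by 0.45 (SE 0.110, adjusted p = 0.00152). EGR1 was lower in U-937 by -2.74 (SE 0.232, adjusted p = 4.10e-09), a 6.67-fold difference. SPI1 gave -0.61 (SE 0.210, adjusted p = 0.0198), but the DMSO libraries of the lines overlapped, and the value was -0.10 without SKNO-1 DMSO replicate 1 (adjusted p = 0.613) and -0.37 without U-937 DMSO replicate 2 (adjusted p = 0.233). Line, medium and library set cannot be told apart in these values.

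The response to the agents was then compared between lines by an interaction contrast, which could be tested for 5 members. The ATRA response differed for 1 of them, SPI1, with 19.4% of genes called, 10.6% with a higher value in U-937: it was higher in U-937 by 0.99 (SE 0.293, edgeR adjusted p = 0.0285). Leaving out any of 5 libraries ended this call: 0.47 without SKNO-1 DMSO replicate 1, 0.85 and 1.03 without SKNO-1 ATRA replicates 1 and 2, 0.77 without U-937 ATRA replicate 2 and 0.73 without U-937 DMSO replicate 2 (adjusted p from 0.0796 to 0.170). The EGR1 fall with ATRA did not differ between the lines beyond its error (0.54, SE 0.407, adjusted p = 0.432). For Corin no member was called by edgeR at the report's settings or by DESeq2, with 12.8% of genes called. In edgeR 2 members had an unadjusted p under 0.05. ZEB2 gave 0.328 (SE 0.156, edgeR adjusted p = 0.192) and passed with the GC trend removed (0.404, adjusted p = 0.00677). SPI1 gave 0.663 (SE 0.296, adjusted p = 0.174) and passed with no low-count filter (0.668, adjusted p = 0.00701).

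The response to both agents differed for 3 members, all with a higher value in U-937, with 40.6% of genes called and 17.9% called higher. SPI1 was not among them (0.485, SE 0.291, edgeR adjusted p = 0.215), but it passed with the GC trend removed (0.903, adjusted p = 9.41e-06). Over 14 alternatives the SPI1 value ran from 0.014 to 0.903. The interaction of EGR1 was 1.55 (SE 0.347, adjusted p = 0.00129), that is, a smaller fall in U-937, and it kept its call in all 14 alternatives. ZEB2 gave 0.44 (SE 0.156, adjusted p = 0.0284), where the median over all genes was -0.11. It fell to 0.29 (adjusted p = 0.213) on library totals and to 0.23 (adjusted p = 0.175) without SKNO-1 DMSO replicate 2. It also missed the threshold without U-937 DMSO replicate 1 (0.45) or 2 (0.43) and without the second library of the combination in SKNO-1 (0.39) or U-937 (0.41), with adjusted p from 0.0561 to 0.108. EGR2 gave 2.72 (SE 1.05, adjusted p = 0.0450) on 16 counts in the SKNO-1 groups compared, and 10 of 14 alternatives ended the call. These included each SKNO-1 DMSO library left out (2.49 and 2.93), U-937 DMSO replicate 1 (2.32), SKNO-1 combination replicate 2 (2.19) and either U-937 combination library (2.58 and 2.84), with adjusted p from 0.0566 to 0.161.

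EGR1 and EGR2 were set beside 22 other immediate early genes, which answer the same growth factor signals, and the EGR relatives and cofactors. With ATRA in SKNO-1, 5 of 20 tested early genes were called, all lower, with a median log2 fold change of -0.46 against 0.01 over all genes, of which 3.79% were called lower. With both agents in U-937, 13 rose and 4 fell of 20 tested, with a median of 1.08 against 0.03 over all genes. Of all genes there, 33.1% were called higher and 32.2% lower, and in SKNO-1 with both agents 24.7% were called higher and 22% lower. FOS, which pairs with JUN in the AP-1 factor, went from 1.81 ± 0.503 to 46.6 ± 1.45 CPM in U-937 with both agents (log2 fold change 4.70, SE 0.201, edgeR adjusted p = 6.05e-13), and the antiproliferative gene BTG2 from 2.80 ± 0.0710 to 24.2 ± 2.82 CPM (3.12, SE 0.167). With both agents in U-937, EGR1 was lower while most of the called early genes were higher, and EGR2 was higher with them. SRF, the gene of serum response factor itself, fell in U-937 with both agents from 70.2 ± 0.459 to 44.1 ± 1.84 CPM (-0.66, SE 0.0977, adjusted p = 2.45e-06).

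In SKNO-1 with both agents, 4 early genes rose and 6 fell of 20 tested. IER5 rose there from 20.1 ± 3.51 to 28 ± 0.775 CPM (0.52, adjusted p = 0.0113). BTG2 fell from 17.1 ± 0.933 to 7.89 ± 0.288 CPM (-1.07, SE 0.125) and SPRY2, an inhibitor of growth factor signalling, from 29.1 ± 0.903 to 13.1 ± 0.275 CPM (-1.10, SE 0.0945), so BTG2 moved in opposite directions in the 2 lines, a difference not tested gene by gene here. With ATRA in U-937, 9 early genes rose and 6 fell of 20, with a median of -0.01, where 41.8% of all genes were called.

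**Figure D5:**
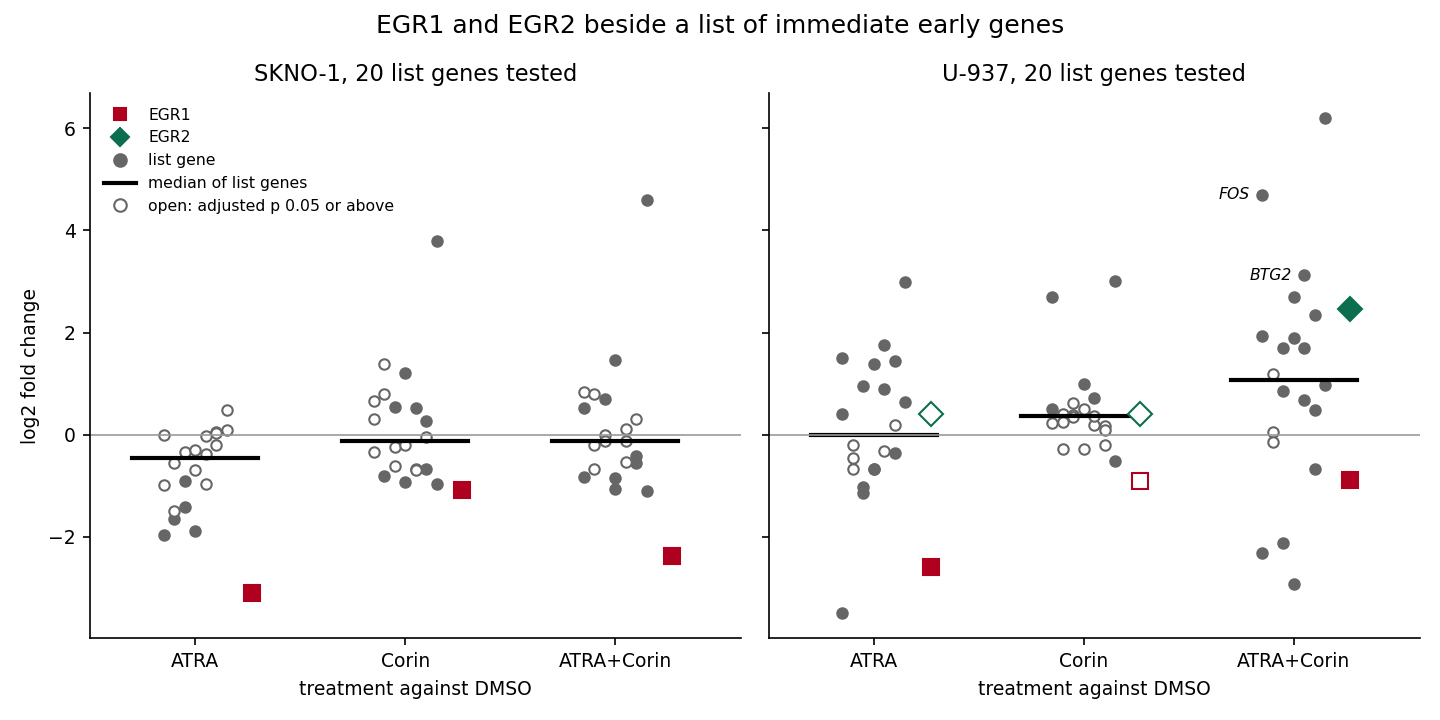
Log2 fold change against DMSO of 20 tested immediate early genes (circles, bar at their median), EGR1 (squares) and EGR2 (diamonds) in SKNO-1 (left) and U-937 (right). Filled symbols have an adjusted p under 0.05. In U-937 with both agents the list median is 1.08, EGR2 lies at 2.47 and EGR1 at -0.89.

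Of 8 relatives and cofactors of the EGR and ZEB factors, 7 were tested in U-937 and 6 in SKNO-1. With both agents 1 rose and 5 fell in U-937, where 65.3% of all genes were called. In SKNO-1 2 rose and 1 fell, where 46.7% of all genes were called. NAB2, a corepressor that EGR proteins bind and induce, fell in U-937 from 18.5 ± 1.19 to 9.95 ± 0.133 CPM (-0.89, SE 0.134, edgeR adjusted p = 3.23e-06), as did CTBP1, a corepressor of ZEB proteins (-0.39, SE 0.0990). ID2, an inhibitor of E-box factors, rose in both lines, from 31.4 ± 3.84 to 67.1 ± 8.89 CPM in U-937 (1.10, SE 0.142) and from 21.5 ± 1.53 to 42.9 ± 0.354 CPM in SKNO-1 (1.05, SE 0.0739). ZEB1, the paralogue of ZEB2, rose in SKNO-1 with both agents from 1.76 ± 0.498 to 12.9 ± 0.0716 CPM (2.92, SE 0.183, adjusted p = 1.77e-05), while NAB1, the paralogue of NAB2, fell (-0.52, SE 0.0968).

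Among 8 interferon regulatory factors and partners of IRF8, 5 rose and 2 fell of 7 tested with ATRA in U-937, where 21.7% of all genes were called higher, and 4 rose and 1 fell of 7 with both agents, where 33.1% were. IRF1, an activator of interferon-responsive genes, went from 8.60 ± 0.220 to 148 ± 3.26 CPM in U-937 with both agents (4.11, SE 0.111, edgeR adjusted p = 3.10e-19) and from 23.9 ± 3.39 to 104 ± 1.61 CPM in SKNO-1 (2.17, SE 0.107). IRF9, the DNA-binding part of the interferon complex ISGF3, rose in U-937 from 3.22 ± 0.572 to 27.5 ± 0.365 CPM (3.10, SE 0.157). BATF3, a partner of IRF8 in dendritic cells, fell in U-937 from 8.51 ± 0.152 to 2.45 ± 0.132 CPM (-1.79, SE 0.188). In SKNO-1 with both agents 2 of 7 tested rose and none fell, a share near the 24.7% of all genes called higher there.

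The ETS factors, the family of PU.1, split in both directions: with both agents 3 rose and 4 fell of 9 tested in U-937, and 3 rose and 1 fell of 7 in SKNO-1. Of all genes, 65.3% were called with both agents in U-937 and 46.7% in SKNO-1. ELF4 rose in both lines (0.71, SE 0.0984, in U-937 and 0.47, SE 0.109, in SKNO-1) and GABPA, an ETS factor of housekeeping genes, fell in both (-0.37, SE 0.107, and -0.77, SE 0.148). ETS1 rose in U-937 from 85.0 ± 2.90 to 161 ± 17.3 CPM (0.93, SE 0.0989) while ETS2 fell (-0.65, SE 0.0965), and ERG rose in SKNO-1 from 79.1 ± 3.48 to 130 ± 0.808 CPM (0.77, SE 0.0556). Among KLF factors, 5 rose and 2 fell of 7 tested in U-937 with both agents, and 2 rose and 2 fell of 8 in SKNO-1. The shares of all genes called are the same 65.3% and 46.7%. KLF6 rose in U-937 from 36.5 ± 4.08 to 124 ± 2.98 CPM (1.78, SE 0.116) and fell in SKNO-1 (-0.60, SE 0.0583). KLF10 rose in U-937 (1.45, SE 0.206) and KLF9 fell (-0.60, SE 0.145), while in SKNO-1 KLF13 (0.50, SE 0.121) and KLF7 (0.46, SE 0.145) rose and KLF11 fell (-0.58, SE 0.133).

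Of 17 phagocyte genes known as targets of PU.1 and IRF8, most rose with both agents. In all, 14 rose and 1 fell of 16 tested in U-937, with a median log2 fold change of 2.24 and 33.1% of all genes called higher, and 14 rose and 1 fell of 17 in SKNO-1, with 24.7% of all genes called higher and a median of 0.81 that was the same with the 2 genes at 0 counts in DMSO set to their lower bounds. ITGAM, the integrin subunit CD11b, went from 4.54 ± 0.163 to 360 ± 9.46 CPM in U-937 (6.32, SE 0.128, edgeR adjusted p = 2.61e-21) and from 0.394 ± 0.0789 to 117 ± 0.769 CPM in SKNO-1 (8.26, SE 0.137). CSF1R, the macrophage colony-stimulating factor receptor, rose in U-937 from 0.774 ± 0.155 to 30.1 ± 0.135 CPM (5.29, SE 0.186), and the lysosomal glycoprotein gene CD68 rose in SKNO-1 from 6.0 ± 1.27 to 57.2 ± 0.0603 CPM (3.30, SE 0.149). BTK, a kinase gene with a PU.1-dependent promoter, was the 1 that fell in each line (-0.30, SE 0.102, in U-937 and -0.49, SE 0.0564, in SKNO-1). In SKNO-1 IRF8 was at 0 to 1 count. The SPI1 change there with both agents was not called (0.55), but it ran from 0.156 to 1.014 over 11 alternatives. Whether the targets rose through SPI1 or IRF8 was not tested in either line.

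With Corin alone, 12 of these targets rose and 2 fell of 17 in SKNO-1, and 10 rose of 16 in U-937. SPI1 was not called with Corin in either line, whereas IRF8 rose in U-937 (0.52, SE 0.0999, edgeR adjusted p = 0.000735). Over all genes with Corin, 3590 of 17479 were called higher and 3029 lower in SKNO-1. In U-937 1514 of 17717 were called higher. With ATRA alone, 13 rose and 2 fell of 16 in U-937, where SPI1 rose and IRF8 fell, and 5 rose and 3 fell of 17 in SKNO-1. Over all genes with ATRA, 3848 of 17717 were called higher and 3557 lower in U-937. In SKNO-1 518 of 17479 were called higher and 663 lower. CIITA, the master regulator of MHC class II genes, was named after its values were seen because it followed IRF8 in direction with the single agents. In U-937 it went from 5.71 ± 0.896 CPM in DMSO to 0.606 ± 0.235 with ATRA (-3.22, SE 0.258) and 16 ± 0.0432 with Corin (1.48, SE 0.192), and was at 5.40 ± 1.28 with both (-0.07, adjusted p = 0.771). In SKNO-1, which lacked IRF8 counts, CIITA also fell with ATRA (-0.75, SE 0.0905, adjusted p = 0.00199) and rose with Corin (0.76, SE 0.0877, adjusted p = 0.000451).

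Of other monocyte and macrophage factors, 6 rose and 1 fell of 8 tested in U-937 with both agents, where 33.1% of all genes were called higher, and 5 rose and 1 fell of 8 in SKNO-1, where 24.7% were. CEBPB, a factor of inducible myeloid genes, rose from 11.6 ± 0.617 to 70.3 ± 7.70 CPM in U-937 (2.61, SE 0.143) and from 5.02 ± 0.528 to 20.2 ± 1.43 CPM in SKNO-1 (2.06, SE 0.137). MITF rose in U-937 (1.42, SE 0.133) and BHLHE40 in SKNO-1 (1.71, SE 0.0680), while CEBPA fell in U-937 (-0.36, SE 0.104) and CEBPD in SKNO-1 (-0.77, SE 0.176). Of 10 factors of other lineages or progenitors, 2 rose and 4 fell of 7 tested in U-937 with both agents, where 65.3% of all genes were called. Among these CEBPE, the granulocyte factor, rose from 3.10 ± 0.199 to 28.9 ± 1.51 CPM (3.23, SE 0.162), MEIS1 rose (0.80, SE 0.0995), and MYB (-0.97, SE 0.104) and RUNX1 (-0.65, SE 0.137) fell. In SKNO-1, 3 of 9 rose, among them ERG and MYB (0.41, SE 0.0605), and 1 fell, TAL1 (-0.49, SE 0.0718). Of all genes there, 46.7% were called with both agents.

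Genes lying within 50 kb of a member, or overlapping it, were read from the same fits, and those named here were chosen after their values were seen. The lncRNA AC090559.1, 2962 bases from SPI1 and on the same strand, rose in U-937 from 6.61 ± 0.0445 CPM to 23.2 ± 1.15 with ATRA (1.81, SE 0.129, edgeR adjusted p = 6.28e-11) and 20.1 ± 0.524 with both agents (1.61, SE 0.129), the comparisons in which SPI1 rose. It also rose in SKNO-1 with both agents (0.81, SE 0.137) and with Corin (0.44, SE 0.138, adjusted p = 0.0373), where SPI1 was not called. PSMC3, a proteasome subunit gene 40222 bases from SPI1, fell in U-937 with both agents from 64.5 ± 1.91 to 26.3 ± 2.73 CPM (-1.29, SE 0.11, adjusted p = 3.19e-10). MADD, 24829 bases from SPI1 on the opposite strand, rose in U-937 with ATRA (0.70, SE 0.0999) and with both (0.77, SE 0.100).

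The lncRNA AC092723.5, 2378 bases from IRF8 on the same strand, rose in U-937 with Corin from 0.251 ± 0.0301 to 1.46 ± 0.428 CPM (2.52, SE 0.535, adjusted p = 0.00194). It fell with both agents to 0.0661 ± 0.0934 CPM (-1.96, SE 0.855, adjusted p = 0.0420). Both are the directions of IRF8. With ATRA, where IRF8 fell, AC092723.5 was not called (-0.835, SE 0.71, adjusted p = 0.36). It had 131 counts over all 16 libraries, so these values rest on few counts. REEP2, 18510 bases from EGR1, rose in SKNO-1 with Corin (2.07, SE 0.247) while EGR1 fell. In that comparison KDM3B, 28451 bases from EGR1, fell (-0.43, SE 0.0615, adjusted p = 0.0012). ETF1, 36792 bases from EGR1, was not called (-0.145, adjusted p = 0.0765). KDM3B and ETF1 were called lower with both agents in each line. AC009951.1, a transcript of unsettled type inside ZEB2 on its strand, fell in U-937 with ATRA from 64.4 ± 0.987 to 38.8 ± 1.97 CPM (-0.73, SE 0.225, adjusted p = 0.0394). It fell as well with both agents (-0.71, SE 0.226, adjusted p = 0.0291), where ZEB2 gave 0.17 and was not called. The library kit keeps strand, but how strand and overlap were treated in counting is not given in the sources used here, so reads of ZEB2, of AC009951.1 and of the antisense gene ZEB2-AS1 may be divided between them. None of the 4 genes near KLF4 had counts enough to be tested.

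The genes whose pattern over the 16 libraries was most like each member were found by Pearson's r of log2(CPM + 0.5), with each line centred on its own mean, over the 10537 genes whose mean reached 5 CPM. For SPI1 these were ASL (r = 0.967), RMRP (0.963) and ZGPAT (0.961), and for IRF8, which varied in U-937 only, LAMP5 (0.976), HS3ST2 (0.973) and GRIK3 (0.969). For KLF4 they were EMILIN2 (0.935), MEF2A (0.926) and MCUB (0.923). For EGR1 they were SEMA4A (0.921), ARRDC4 (0.905) and CYTL1 (0.884), for EGR2 SRA1 (0.949), RDH11 (0.939) and C1orf162 (0.938), and for ZEB2 VPS37A (0.874), CBWD5 (0.841) and MBNL1 (0.841). These correlations are descriptions over libraries that share their groups and, for SPI1 and ZEB2, the GC-related difference of the SKNO-1 DMSO pair.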

How the data were processed

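Total RNA was sequenced in 16 libraries, 2 for each of 4 treatments in SKNO-1 and U-937. The authors deposited expected counts per gene from RSEM, as 1 table and as 1 file per library, whose values did not differ (largest difference 0). The submitters' processing notes also name Trimmomatic, STAR and DESeq2, and the build hg38, with no versions. TPM and FPKM values are the authors' and, per the file headers, are scaled by RSEM's effective length. The authors' comparison tables hold log2 fold changes and adjusted p-values, per the file headers. The labels name paired-end reads of 100 bp, whereas the file names carry a single-end mark, so whether both mates were counted is open. Of the positive expected counts 20.4% were not whole (tolerance 1e-06), but only 2 of the 96 member values.

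Expected counts were rounded. Genes were filtered with filterByExpr and scaled by TMM, and edgeR 4.0.16 in R 4.3.3 was fitted to the 8 libraries of each line (17479 genes in SKNO-1, 17717 in U-937, 4 residual degrees of freedom) and to all 16 (19872 genes, 8 residual degrees of freedom). A gene was called where its p, adjusted by Benjamini and Hochberg's method, was under 0.05. CPM are on TMM-scaled totals, and each SE was derived from the fold change and the F statistic. Totals of 28.4 to 37.8 M counts limit the precision of EGR2, KLF4 and, in U-937, EGR1, which have few counts. Floors cover counting error only, since no molecular identifiers are named. Code was tested on simulated data with 200 changed genes.

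The members and gene lists were chosen with earlier results of these data known, so the lists are no independent evidence. From each list, up to 2 genes with the largest rise and 2 with the largest fall with both agents in each line are named, among those called that averaged 5 CPM or more in that line; for each member the 3 most similar genes are named. Alternatives were DESeq2 1.42.0, library totals, no low-count filter, only the libraries compared, a replicate block, removal of each library's GC trend, and leaving out each library. The table has 0 spike-in rows, so no scaling to the spike-in was made. Positions are from GENCODE 44, matched by identifier for 60306 of 60603 genes. SPI1's promoter and all protein sequences were not used here.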

Additional observations from a re-analysis of the deposited data

Results flagged for a closer look

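Results are given here because the response to treatment differed between U-937 and SKNO-1 by a test of the difference itself, an interaction contrast in edgeR over all 16 libraries. SPI1 responded more to ATRA in U-937 by a log2 value of 0.987 (SE 0.293, adjusted p = 0.0285), with adjusted p from 3.72e-06 to 0.170 over 14 alternatives. EGR1 fell less with both agents in U-937 by 1.547 (SE 0.347, adjusted p = 0.00129; 4.19e-05 to 0.0216 over alternatives). EGR2 rose more with both agents in U-937 by 2.716 (SE 1.05, adjusted p = 0.0450; 0.0180 to 0.161 over alternatives), with 9 and 7 counts over the SKNO-1 groups compared. ZEB2 differed with both agents by 0.444 (SE 0.156, adjusted p = 0.0284; 0.000179 to 0.213 over alternatives). The SKNO-1 DMSO pair, whose libraries differ with GC content, enters all 4 values, and the part of that difference in them was not tested beyond the values without each library and with the GC trend removed.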

How the results depend on the processing

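Over 80 member comparisons, 816 of 951 alternatives kept the direction and the side of the threshold, 43 lost the call, 58 gained it and 34 turned the sign, and 38 comparisons kept both under every alternative run. Each sign that turned belonged to a value not called in the report, and beyond what left-out libraries show the cause was not tested. For SPI1 with ATRA in SKNO-1, the log2 value was 0.01 with the GC trend removed, 0.016 with a replicate block, 0.011 with both, and -0.405 to 0.427 with 1 library left out. KLF4 with both agents in SKNO-1 was 0.016 with the block, 0.001 with only the libraries compared, and -0.24 to 0.256 with 1 left out. ZEB2 with both agents in SKNO-1 was 0.085 against ATRA and 0.136 against Corin with the GC trend removed, and the same 0.085 and 0.136 with the replicate block added. With both agents against Corin in U-937, EGR1 was -0.107 and ZEB2 -0.135 on library totals, -0.022 and -0.038 with no low-count filter, and -0.018 and -0.036 with only the libraries compared, and EGR1 was -0.011 with the block and the GC trend removed. With 1 library left out, these ranged from -0.251 to 0.23 for EGR1 and from -0.075 to 0.073 for ZEB2.

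A group left with 1 library is assumed to vary like the others. With 1 library left out, SKNO-1 values that turned ranged from -0.39 to 0.015 for ZEB2 with ATRA, -0.702 to 0.13 for SPI1 with Corin, -0.368 to 0.037 for ZEB2 with Corin, -0.127 to 0.003 for ZEB2 with both agents against ATRA, and -0.078 to 0.328 for its additivity. In U-937 they ranged from -0.018 to 0.927 for EGR2 with ATRA, -0.11 to 0.221 for SPI1 with both against ATRA, and -0.084 to 0.362 for KLF4 additivity. Between lines they ranged from -0.317 to 0.095 for ZEB2 with ATRA and -0.128 to 0.438 for EGR1 with Corin.

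In SKNO-1, the members called with ATRA went from 1 to 2 with the GC trend removed and with no low-count filter, and ran from 1 to 4 with 1 library left out. With Corin they went from 1 to 2 with the GC trend removed, with or without the replicate block, and with no filter, and ran from 1 to 2. With both agents they went from 1 to 3 with no filter and ran from 1 to 3. Against ATRA they went from 2 to 1 with the GC trend removed, with or without the block, and on library totals, rose to 3 (SPI1 added) under DESeq2, no filter and only the libraries compared, and ran from 0 to 1 with 1 library left out. Against Corin they went from 1 to 2 under DESeq2, library totals, no filter, only the libraries compared, and the GC trend removed with or without the block, and were 0 with any library left out. For additivity they went from 0 to 1 under DESeq2 and under the block with the GC trend removed, to 2 with no filter, and ran from 0 to 3.

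Between lines, members called for ATRA ran from 0 to 1 with 1 library left out. For Corin they went from 0 to 1 with the GC trend removed, with or without the block, and with no filter, and ran from 0 to 1. For both agents they went from 3 to 1 on library totals and ran from 1 to 3. Over all genes, those called with ATRA in SKNO-1 numbered 1181, and 239 to 5335 over the alternatives.

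Same-numbered libraries did not deviate together (correlations of -0.471 to 0.396), so the numbers were not taken as pairs. The replicate block alone ended 1 call, that of the EGR2 difference between lines with both agents (2.719, adjusted p = 0.0634), and moved no count of members beyond 1.5 times. Library totals moved the median of all genes by more than 0.1 on the log2 scale in U-937 for both agents against DMSO (-0.0877) and against Corin (-0.109), and between lines in DMSO (0.148) and with both agents (-0.263, against -0.107 in the report's scaling). Depth limits EGR2 in SKNO-1 and KLF4 with ATRA in SKNO-1, at 2 to 9 and 18 counts a group.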
